A study of Mus musculus with 3 samples.

Results

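Matrix metalloproteinases (MMPs) are zinc enzymes that cut collagen and other proteins of the extracellular matrix. Most are secreted as inactive proenzymes, some are anchored in the membrane, and tissue inhibitors (TIMPs) block them. In the infarcted heart they are known for degrading and remodelling the matrix of the injured ventricle, and fibroblasts and leukocytes both make them.

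The 10 members listed were Mmp2, Mmp3, Mmp8, Mmp9, Mmp11, Mmp12, Mmp13, Mmp14, Mmp16 and Mmp23. Each was found as the table entry at the gene's GRCm38 position, provided that no other entry shared the locus. Of the 10 members, 9 met this rule among the 31930 entries of each table. Mmp12 did not, because 2 entries share its locus.

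RNA was sequenced from 3 libraries, 1 a group. FSP1+ fibroblasts came from FSP1-GFP transgenic mice, in which the promoter of FSP1 (S100a4) drives GFP, and were sorted 10 days after myocardial infarction as GFP+ cells without CD45 or CD31. αSMA+ fibroblasts came from αSMA-GFP transgenic mice (aSMA in the labels), in which the promoter of α smooth muscle actin (Acta2) drives GFP, and were sorted on GFP 10 days after infarction. Uninjured fibroblasts came from uninjured hearts of WT mice and were plated for 4 h before RNA was taken. All mice were on the C57/BL6 background and 12 weeks old by their labels. According to the study, the sorted cells of each sort came from several injured hearts combined. Injury, sorting on GFP and plating changed together between the groups, so their parts in a difference from uninjured fibroblasts cannot be told apart.

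The labels were checked against marker genes. Acta2 had an FPKM (fragments per kilobase of transcript, scaled to the size of the library) of 279.8 in the library labelled FSP1+, against 65.0 in the library labelled αSMA+, which goes against the labels. In the table with uninjured, Acta2 had 77.1 FPKM in the library labelled αSMA+, against 95.4 in that labelled uninjured. Pecam1, the gene of CD31, had 156.5 FPKM in the library labelled FSP1+, against 41.8 in that labelled αSMA+. Ptprc, the gene of CD45, had 13.9 FPKM in the library labelled FSP1+, against 3.79 in that labelled uninjured, and differed by under 2-fold from αSMA+. The FSP1+ sort excluded cells with CD31 or CD45, and the source of these RNAs was not tested. Of 10 fibroblast markers, 4 were higher by at least 2-fold in the library labelled FSP1+ and 5 were lower. Over all entries, 19.1% were higher and 14.5% lower. Postn, a matrix gene of activated fibroblasts, had 281.7 FPKM in the library labelled FSP1+, against 84.8 in that labelled αSMA+, whereas Pdgfra, a receptor of cardiac fibroblasts, had 16.5, against 323 in that labelled αSMA+. The library numbers in the sample titles and descriptions also differ for αSMA+ and uninjured. Whether libraries were exchanged was not tested, and with the labels FSP1+ and αSMA+ exchanged every ratio between them would change sign. Every direction below holds for the libraries as labelled. With 1 library a group there is no replicate check, no test was run, and the values speak of the libraries alone, not of the conditions behind them. In bulk RNA, fewer cells of a type and less RNA per cell cannot be told apart.

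Metalloproteinase genes are known to differ in their promoters. Those of the collagenase and stromelysin type often carry a site for AP-1, the dimer of FOS and JUN proteins, close to a TATA box, whereas others carry GC boxes, the site of SP1. For 7 of the 10 members RefSeq gave a promoter of 300 bases (GRCm38.p6), 250 before the start site and 50 after it. The 150 bases around the start are shown for the 2 members with the largest difference between the libraries labelled αSMA+ and uninjured, Mmp13 (chr9:7272394-7272543) and Mmp3 (chr9:7445702-7445851), for their neighbour Mmp8 (chr9:7558309-7558458) and for Mmp14 (chr14:54431478-54431627), both of which stayed under 2-fold in all 3 comparisons. They were chosen after their values were seen. All 4 lie on the plus strand and run 5′ to 3′. Capitals mark TGANTCA (AP-1, both strands), TATAAA (gene strand) and GGGCGG (GC box, both strands).
Mmp13: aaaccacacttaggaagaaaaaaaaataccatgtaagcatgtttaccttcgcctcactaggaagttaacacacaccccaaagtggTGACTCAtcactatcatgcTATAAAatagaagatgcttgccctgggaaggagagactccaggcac
Mmp3: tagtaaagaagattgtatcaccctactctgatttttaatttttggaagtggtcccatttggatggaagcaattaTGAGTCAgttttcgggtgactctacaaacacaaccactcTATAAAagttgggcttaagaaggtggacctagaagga
Mmp8: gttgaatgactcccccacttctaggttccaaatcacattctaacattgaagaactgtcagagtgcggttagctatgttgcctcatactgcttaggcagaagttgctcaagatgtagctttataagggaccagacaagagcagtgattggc
Mmp14: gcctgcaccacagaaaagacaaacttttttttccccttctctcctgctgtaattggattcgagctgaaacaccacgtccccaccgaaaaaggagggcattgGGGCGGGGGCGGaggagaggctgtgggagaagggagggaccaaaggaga

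Mmp13 held TGACTCA 35 bases before its start and TATAAA 16 bases before it. Mmp3 held TGAGTCA 46 bases and TATAAA 7 bases before its start. The Mmp8 and Mmp14 windows held neither motif, and Mmp14 held GGGCGG 19 and 13 bases before its start, as adjacent copies. Over 32851 mouse promoters of the same length, TGANTCA was in 7.81%, TATAAA in 8.32%, both in 0.995% and GGGCGG in 35.7%. In the whole metalloproteinase family, 18 genes had a promoter and 8 of these held both TGANTCA and TATAAA. All 8 were among the 10 family genes of a cluster on chromosome 9. Mmp10 of this cluster held TGAGTCA 63 bases and TATAAA 29 bases before its start. It had at most 1.27 FPKM and did not reach 2-fold in any comparison. Of the 8 family genes on other chromosomes, 7 held GGGCGG. Such matches describe letters and were not tested as binding sites.

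Mmp2 was the most abundant member in every library, and the members below it came in a different order in each. FPKM is scaled by transcript length, so levels of different genes can be set side by side within a library. Since each table was scaled separately, the same library carries other values in its other table. Values of the library labelled FSP1+ in the table with αSMA+ were 0.871 times those in the table with uninjured, those of the library labelled αSMA+ 0.844 times those in its table with uninjured. Shares of the members' summed FPKM within a library do not depend on this scaling.

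**Figure D1:**
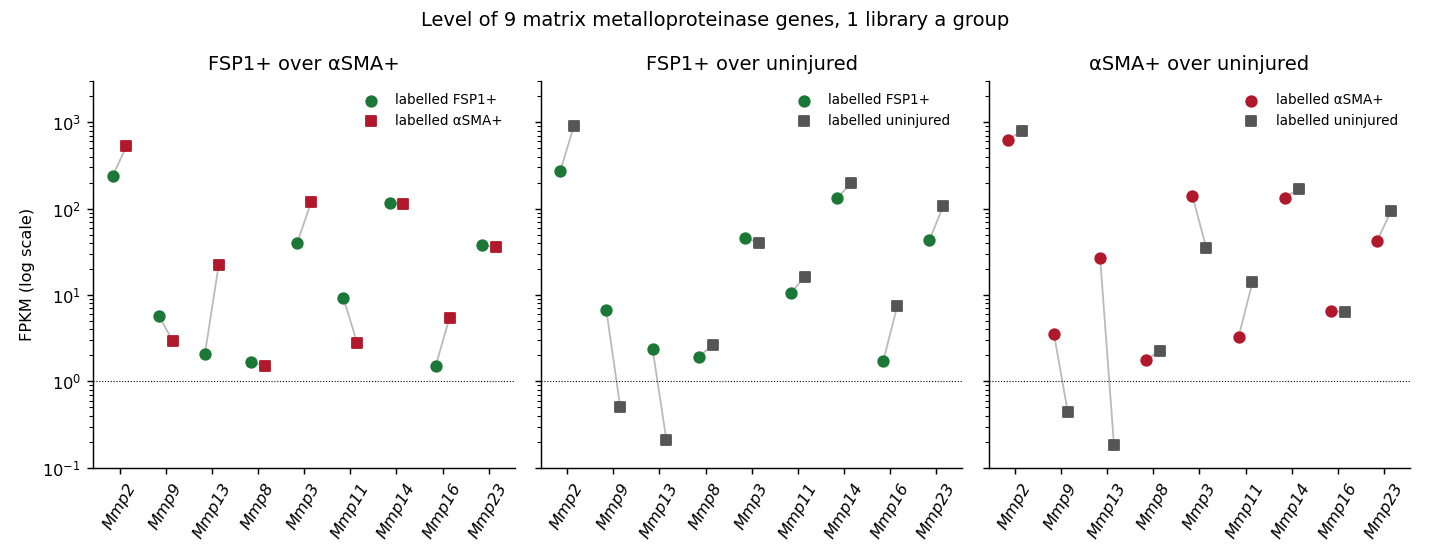
FPKM (log scale) of the 9 members in each pair table, with the library named first in the panel title as circles on the left and the other as squares on the right of each pair, and a dotted line at 1 FPKM. Mmp2 was the most abundant member in each library, and Mmp13 spanned the widest range, with 26.5 FPKM in the library labelled αSMA+, against 0.181 in that labelled uninjured.

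Mmp2, the main gelatinase of stromal cells, made up 52.5% of the members' summed FPKM in the library labelled FSP1+, 63.6% in that labelled αSMA+ and 71.2% in that labelled uninjured. By FPKM it ranked 403rd of 22788 entries above 0 in the library labelled FSP1+, 189th of 22943 in the library labelled αSMA+ and 83rd of 22719 in the library labelled uninjured. Mmp14, the membrane-type enzyme that activates pro-MMP2, was second in all but 1 library, with 25.7% in the library labelled FSP1+, against 15.2% in that labelled uninjured. In the library labelled αSMA+, Mmp14 had 13.7% and Mmp3 had 14.2%. Mmp3 had 8.91% in the library labelled FSP1+, against 3.13% in that labelled uninjured.

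Mmp23 took 8.41% of the sum in the library labelled FSP1+, 4.29% in that labelled αSMA+ and 8.37% in that labelled uninjured. Mmp13 took 0.462% in the library labelled FSP1+, 2.70% in that labelled αSMA+ and 0.0163% in that labelled uninjured. The share of Mmp9 was largest in the library labelled FSP1+, with 1.28%, against 0.356% in that labelled αSMA+ and 0.0393% in that labelled uninjured. Mmp11 had 2.06% in the library labelled FSP1+, 0.334% in that labelled αSMA+ and 1.26% in that labelled uninjured. Mmp8 and Mmp16 each stayed under 0.7% in every library.

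**Figure D2:**
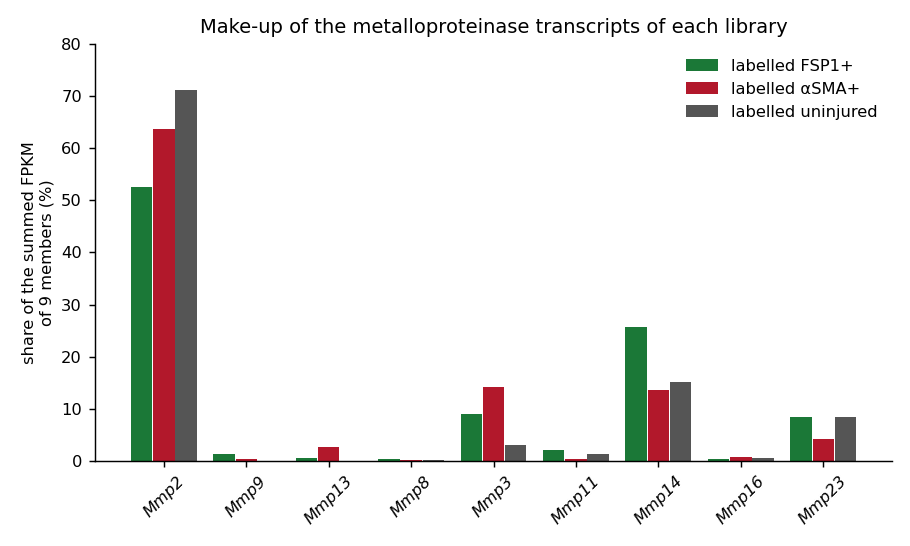
Share (%) of each member in the summed FPKM of the 9 members, with 1 bar a library (FSP1+, αSMA+, uninjured from left to right) and no error bars, since there was 1 library a group. Mmp2 held 52.5% of the sum in the library labelled FSP1+, 63.6% in that labelled αSMA+ and 71.2% in that labelled uninjured, and the Mmp3 bar of the library labelled αSMA+ (14.2%) stood beside an Mmp14 bar of 13.7%.

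Ratios between members within a library are likewise free of scaling. Per Mmp14, Mmp2 had 2.04 in the library labelled FSP1+, 4.66 in that labelled αSMA+ and 4.67 in that labelled uninjured. Mmp3 per Mmp13 was 19.3 in the library labelled FSP1+, 5.27 in that labelled αSMA+ and 192.5 in that labelled uninjured. The last value is imprecise, since it rests on about 5 Mmp13 reads, estimated as described below. Thus Mmp2 and Mmp14 stood in the same ratio in the libraries labelled αSMA+ and uninjured and in a lower one in the library labelled FSP1+, while Mmp3 and Mmp13 stood in a different ratio in each.

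The first comparison set the FSP1+ library against the αSMA+ library, both from infarcted hearts. Mmp2, Mmp3, Mmp13 and Mmp16 were lower by at least 2-fold in the library labelled FSP1+ and Mmp11 was at least 2-fold higher, after 1 was added to each FPKM. A member counted where it also had at least 1 FPKM in either library, which all 9 had in each comparison. Of the 9 members, 4 were lower, beside 14.5% of the 16374 entries counted the same way, and 1 was higher, beside 19.1% of entries. The median log2 ratio was 0.03 over the members and 0.04 over all entries.

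Among the gelatinases, Mmp2 (chromosome 8, 92827291 to 92853420) had 236 FPKM in the library labelled FSP1+, against 528 in that labelled αSMA+, a log2 ratio of -1.16. Mmp9 (chromosome 2, 164940780 to 164955850, with the entry covering 164948219 to 164955849), the gelatinase made by neutrophils and macrophages, had 5.77 FPKM in the library labelled FSP1+, against 2.96 in that labelled αSMA+, and stayed under 2-fold at 0.77. The pair of gelatinases thus differed in opposite directions, and Mmp2 per Mmp9 was 41.0 in the library labelled FSP1+, against 178 in the library labelled αSMA+.

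Among the collagenases, Mmp13 (chromosome 9, 7272514 to 7283331), the interstitial collagenase of rodents, had 2.08 FPKM in the library labelled FSP1+, against 22.4 in that labelled αSMA+. Its log2 ratio of -2.92 was the lowest of the members. Mmp8 (chromosome 9, 7558456 to 7568485), the neutrophil collagenase, had 1.67 FPKM in the library labelled FSP1+, against 1.49 in that labelled αSMA+, a ratio of 0.10.

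Among the stromelysins, Mmp3 (chromosome 9, 7445822 to 7455975), which cuts many matrix proteins and activates procollagenases, had 40.2 FPKM in the library labelled FSP1+, against 118 in that labelled αSMA+. Its log2 ratio was -1.53. Mmp11 (chromosome 10, 75923222 to 75936496, minus strand, entry 75923224 to 75932463) is also called stromelysin 3 and activated inside the cell by furin. Mmp11 had 9.27 FPKM in the library labelled FSP1+, against 2.77 in that labelled αSMA+. It was the single member past 2-fold in the upward direction, at 1.45.

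The membrane-type enzymes also parted. Mmp14 lies on chromosome 14, 54431612 to 54445364, and its entry covers 54431604 to 54441258. Mmp14 had 116 FPKM in the library labelled FSP1+, against 113 in that labelled αSMA+, a log2 ratio of 0.03. Mmp16 (chromosome 4, 17852893 to 18119145), another membrane-type enzyme, had 1.51 FPKM in the library labelled FSP1+, against 5.47 in that labelled αSMA+, a ratio of -1.36. The pseudogene Gm11860 overlaps 1010 bases of Mmp16 on the opposite strand, and none of the other 8 members alone at their locus overlaps a gene. Mmp23 (chromosome 4, 155650655 to 155653384, minus strand), a membrane-anchored enzyme without the usual hemopexin domain, had 37.9 FPKM in the library labelled FSP1+, against 35.6 in that labelled αSMA+. With a pseudocount of 5 the calls of Mmp11 and Mmp16 were lost, at log2 ratios of 0.88 and -0.68.

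**Figure D3:**
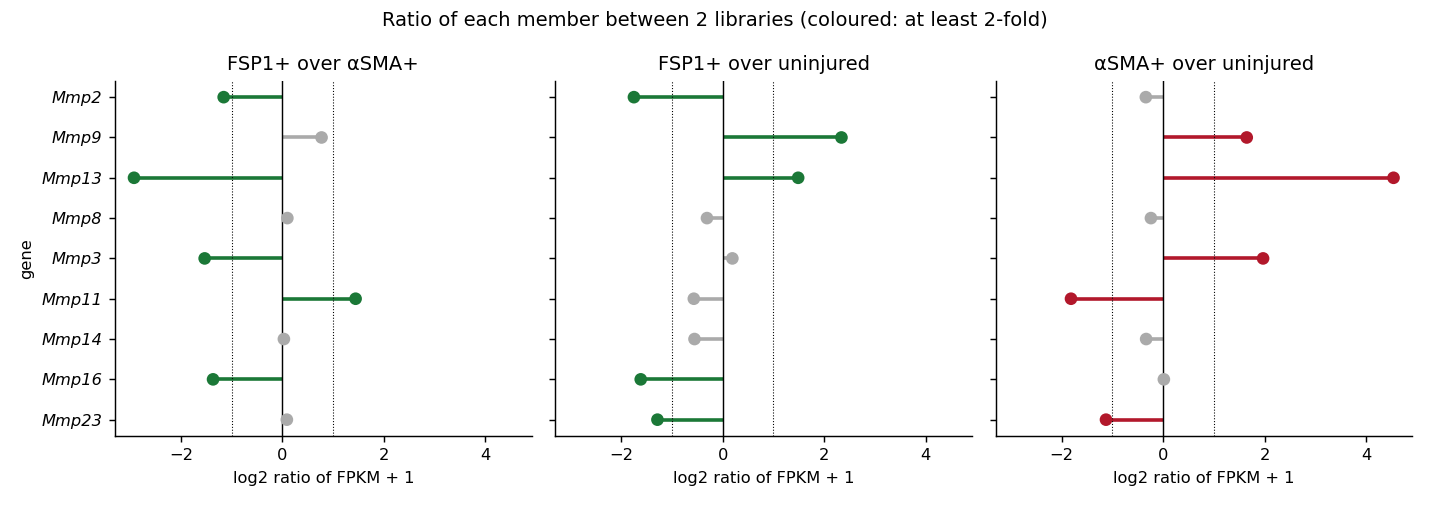
Log2 ratio of FPKM + 1 of each member (rows) in the 3 comparisons (panels), with dotted lines at 2-fold and grey points under it. In the library labelled FSP1+ over the library labelled αSMA+, the ratio was -2.92 for Mmp13, -1.53 for Mmp3 and 1.45 for Mmp11, whereas in αSMA+ over uninjured it was 4.54, 1.97 and -1.82 for the same genes.

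The second comparison set the FSP1+ library against uninjured fibroblasts. Each pair of comparisons shares a library, so the 3 sets of ratios are not independent of each other. Mmp9 and Mmp13 were higher by at least 2-fold in the library labelled FSP1+, while Mmp2, Mmp16 and Mmp23 were at least 2-fold lower. The 2 higher members stood beside 14.6% of 17578 entries and the 3 lower ones beside 16.0%. The members' median log2 ratio was -0.56, against 0.02 over all entries.

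Mmp2 had 272 FPKM in the library labelled FSP1+, against 915 in that labelled uninjured, a log2 ratio of -1.75. Mmp9 had 6.62 FPKM in the library labelled FSP1+, against 0.505 in that labelled uninjured, a ratio of 2.34, the largest of the members. The gelatinases again differed in opposite directions, and Mmp2 per Mmp9 was 41.0 in the library labelled FSP1+, against 1812 in the library labelled uninjured. The latter value rests on about 14 Mmp9 reads.

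Mmp13 had 2.39 FPKM in the library labelled FSP1+, against 0.209 in that labelled uninjured, a log2 ratio of 1.49. Mmp8 had 1.92 FPKM in the library labelled FSP1+, against 2.62 in that labelled uninjured. For the stromelysins, Mmp3 had 46.1 FPKM in the library labelled FSP1+, against 40.3 in that labelled uninjured, and Mmp11 had 10.6 FPKM in the library labelled FSP1+, against 16.3 in that labelled uninjured. Neither stromelysin reached 2-fold, with log2 ratios of 0.19 for Mmp3 and -0.57 for Mmp11.

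Mmp14 had 133 FPKM in the library labelled FSP1+, against 196 in that labelled uninjured, a log2 ratio of -0.56. Mmp16 had 1.74 FPKM in the library labelled FSP1+, against 7.38 in that labelled uninjured, a ratio of -1.62. Mmp23 had 43.5 FPKM in the library labelled FSP1+, against 108 in that labelled uninjured, a ratio of -1.29. All membrane-anchored members were therefore lower in FPKM in the library labelled FSP1+, Mmp14 by less than 2-fold. With a pseudocount of 5 the calls of Mmp13 and Mmp16 were lost, at log2 ratios of 0.50 and -0.88, and Mmp9 and Mmp13 were left out where both libraries needed at least 1 FPKM.

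The third comparison set the αSMA+ library against uninjured fibroblasts. Mmp3, Mmp9 and Mmp13 were higher by at least 2-fold in the library labelled αSMA+, while Mmp11 and Mmp23 were at least 2-fold lower. The 3 higher members stood beside 17.0% of 17204 entries and the 2 lower ones beside 7.11%. The members' median log2 ratio was -0.24, against 0.05 over all entries.

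Mmp13 had 26.5 FPKM in the library labelled αSMA+, against 0.181 in that labelled uninjured, a log2 ratio of 4.54, the largest of any member in any comparison. Mmp3 had 139.7 FPKM in the library labelled αSMA+, against 34.9 in that labelled uninjured, a ratio of 1.97. Mmp9 had 3.51 FPKM in the library labelled αSMA+, against 0.438 in that labelled uninjured, a ratio of 1.65. The 3 genes that were higher thus belong to a different enzyme class each: a collagenase, a stromelysin and a gelatinase.

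Mmp11 had 3.29 FPKM in the library labelled αSMA+, against 14.1 in that labelled uninjured, a log2 ratio of -1.82. Mmp23 had 42.2 FPKM in the library labelled αSMA+, against 93.2 in that labelled uninjured, a ratio of -1.13. The other members stayed under 2-fold. Mmp2 had 626 FPKM in the library labelled αSMA+, against 793 in that labelled uninjured, and Mmp14 had 134 FPKM in the library labelled αSMA+, against 169.6 in that labelled uninjured. Mmp16 had 6.48 FPKM in the library labelled αSMA+, against 6.40 in that labelled uninjured, and Mmp8 had 1.77 in the library labelled αSMA+, against 2.27 in that labelled uninjured. With a pseudocount of 5 the call of Mmp9 was lost, at a log2 ratio of 0.65, and Mmp9 and Mmp13 were left out where both libraries needed at least 1 FPKM.

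The low members rest on few reads. Read numbers were estimated from the step of a single read among the lowest FPKM values, and 1 read on a transcript of 1 kb was worth 0.0600 FPKM in the library labelled FSP1+, against 0.0859 in that labelled αSMA+ in their shared table. In the library labelled uninjured a read was worth 0.110 FPKM in the table with FSP1+, so an FPKM of the library labelled FSP1+ rested on 1.59 times the reads. Mmp13 had about 89 reads in the library labelled FSP1+, 670 in that labelled αSMA+ and 5 in that labelled uninjured. The 5 reads have an exact Poisson 95% interval of 1.62 to 11.7, which in FPKM is 0.0600 to 0.431 in the table with αSMA+. Mmp9 had about 296 reads in the library labelled FSP1+, 106 in that labelled αSMA+ and 14 in that labelled uninjured, and the last has an interval of 0.237 to 0.726 FPKM in the same table.

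For both genes these intervals of the uninjured library lay below the FPKM of either GFP+ library. For Mmp8, with about 65, 40 and 56 reads in the libraries labelled FSP1+, αSMA+ and uninjured, a difference was not detectable at this depth. Its interval was 1.29 to 2.14 FPKM in the library labelled FSP1+ and 1.06 to 2.01 in the library labelled αSMA+. The intervals cover counting error only and not the spread between animals or sorts.

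Mmp12, the macrophage elastase, could not be read alone, because its locus (chromosome 9, 7344397 to 7388026) holds 2 entries and also spans Mmp1b. The abundant entry had 7.59 FPKM in the library labelled FSP1+, against 23.5 in that labelled αSMA+. Against uninjured fibroblasts, it had 8.71 FPKM in the library labelled FSP1+, against 25.8 in that labelled uninjured, and 27.9 in the library labelled αSMA+, against 22.4 in that labelled uninjured. The reads cannot be divided between the genes of the locus.

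Mmp3, Mmp8 and Mmp13 lie in a cluster of 10 metalloproteinase genes within 427 kb of chromosome 9, of which 8 were alone at their locus. The Mmp12 and Mmp1b locus between Mmp13 and Mmp3 was described above. Mmp10, a stromelysin, had 0.251 FPKM in the library labelled FSP1+, against 0.990 in that labelled αSMA+. Mmp27 had 0.486 FPKM in the library labelled FSP1+, against 2.16 in that labelled αSMA+, a log2 ratio of -1.09. In αSMA+ over uninjured, where Mmp13 and Mmp3 were 4.54 and 1.97 higher on the log2 scale, Mmp10 had a ratio of 0.05, Mmp27 of -0.09 and Mmp8 of -0.24.

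**Figure D4:**
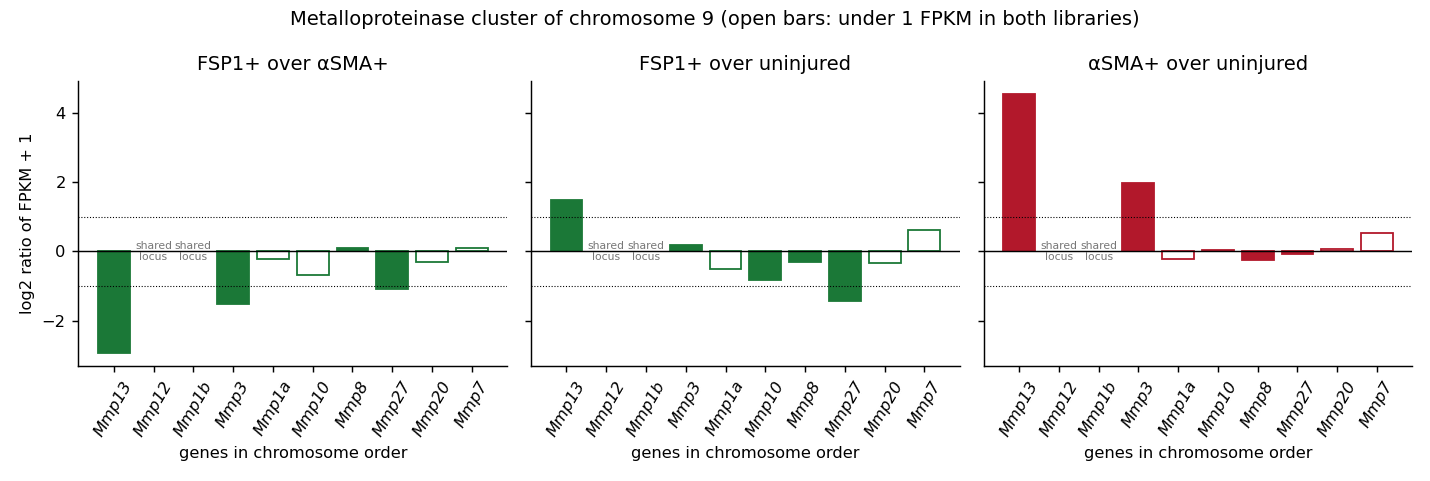
Log2 ratio of FPKM + 1 of the genes in the metalloproteinase cluster of chromosome 9, in chromosome order, for the 3 comparisons (panels). Open bars are genes under 1 FPKM in both libraries, dotted lines mark 2-fold, and in αSMA+ over uninjured Mmp13 (4.54) and Mmp3 (1.97) passed 2-fold while Mmp8 (-0.24), Mmp10 (0.05) and Mmp27 (-0.09) did not.

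The other 13 metalloproteinase genes gave 10 alone at their locus. In FSP1+ over αSMA+, 4 of these had at least 1 FPKM in either library, with 3 higher by at least 2-fold, beside 19.1% of all entries, and 1 lower, beside 14.5%. Mmp15, a membrane-type enzyme, had 7.75 FPKM in the library labelled FSP1+, against 0.907 in that labelled αSMA+, a log2 ratio of 2.20. Mmp17, a membrane-type enzyme held by a lipid anchor, had 8.47 FPKM in the library labelled FSP1+, against 2.63 in that labelled αSMA+, a ratio of 1.38. Mmp28, called epilysin, had 1.92 FPKM in the library labelled FSP1+, against 0.390 in that labelled αSMA+, a ratio of 1.07. These genes were named after their values were seen. The membrane-type enzymes Mmp14, Mmp15, Mmp16 and Mmp17 thus had ratios of 0.03, 2.20, -1.36 and 1.38 in this comparison. In FSP1+ over uninjured, 1 of 6 was higher (Mmp15, 2.74), beside 14.6% of all entries, and 1 lower (Mmp27, -1.44), beside 16.0%. In αSMA+ over uninjured none of 5 passed 2-fold, where 17.0% of all entries were higher and 7.11% lower.

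The inhibitors were mostly at shared loci, and 3 of 7 could be read alone. Reck, a membrane-anchored inhibitor of MMP2, MMP9 and MMP14, had 5.11 FPKM in the library labelled FSP1+, against 13.1 in that labelled αSMA+, and 5.87 FPKM in the library labelled FSP1+, against 15.2 in that labelled uninjured. Its log2 ratios were -1.21 and -1.24, and 0.22 in αSMA+ over uninjured. Tfpi2, a Kunitz-type inhibitor of plasmin and other proteases, had 6.54 FPKM in the library labelled FSP1+, against 47.2 in that labelled αSMA+, a ratio of -2.68. In αSMA+ over uninjured, Tfpi2 had a ratio of 3.14. A2m, the gene of a general protease inhibitor of plasma, stayed under 2-fold, at -0.34 in FSP1+ over αSMA+.

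The TIMP loci each hold several entries, so only entries can be described. The abundant entry of the Timp2 locus, whose product both inhibits MMP2 and takes part in its activation by MMP14, had 143 FPKM in the library labelled FSP1+, against 365 in that labelled αSMA+, a log2 ratio of -1.35. Against uninjured fibroblasts, its ratio was -1.02 for FSP1+ and 0.59 for αSMA+. In FSP1+ over αSMA+, the 2 abundant entries of the Timp3 locus had ratios of -1.25 and -1.07. Of the 7 entries at the Timp1 locus, the most abundant had 122 FPKM in the library labelled FSP1+, against 278 in that labelled αSMA+, a ratio of -1.18. The next had 107.7 FPKM in the library labelled FSP1+, against 41.7 in that labelled αSMA+. The abundant entry of the Timp4 locus had 50.6 FPKM in the library labelled FSP1+, against 18.9 in that labelled αSMA+, a ratio of 1.37. The entries of the TIMP loci thus differed in both directions, and it was not settled which of them belongs to the TIMP gene.

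Genes of metalloproteinase activation, a list of proteases that also counts the urokinase receptor Plaur, differed by list count as follows. In FSP1+ over αSMA+ 3 of 6 were at least 2-fold lower, beside 14.5% of all entries, and 0 higher. In FSP1+ over uninjured 2 were higher, beside 14.6%, and 1 lower, beside 16.0%, and in αSMA+ over uninjured 3 were higher, beside 17.0%, and 0 lower. Plaur, the receptor that holds urokinase at the cell surface, had 119 FPKM in the library labelled FSP1+, against 298 in that labelled αSMA+, a log2 ratio of -1.32. Over uninjured fibroblasts its ratio was 4.47 in the library labelled FSP1+, against 6.01 in that labelled αSMA+. Plau, the gene of urokinase, which makes plasmin, had ratios of 2.41 for FSP1+ and 2.48 for αSMA+ over uninjured and 0.07 between the GFP+ libraries. Pcsk6, a proprotein convertase, had 41.1 FPKM in the library labelled FSP1+, against 134 in that labelled αSMA+, and Furin, the convertase that activates MMP11 and MMP14, had 24.6 FPKM in the library labelled FSP1+, against 24.3 in that labelled αSMA+.

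Of 11 listed signals, and receptors of signals, known to induce metalloproteinase genes, 8 could be read alone. In αSMA+ over uninjured, 8 of 8 were at least 2-fold higher, beside 17.0% of all entries, with a median log2 ratio of 2.61. In FSP1+ over uninjured 4 were higher, beside 14.6%, and 1 lower, beside 16.0%, and in FSP1+ over αSMA+ 1 was higher, beside 19.1%, and 4 were lower, beside 14.5%. Il1r1, the receptor of interleukin 1, had 16.0 FPKM in the library labelled FSP1+, against 100.6 in that labelled αSMA+, a ratio of -2.58. Its ratio in αSMA+ over uninjured was 2.71, whereas FSP1+ over uninjured gave -0.12. Mmp3 had ratios of -1.53, 1.97 and 0.19 in the same 3 comparisons. Other signals on the list differed from it and from each other. In the same order, Osmr had -1.78, 2.50 and 0.47, Il6 had -3.86, 7.92 and 3.83, and Tnf had 0.55, 3.78 and 4.27. The genes were set side by side after their values were seen, and a link to Mmp3 was not tested. Osm, the gene of oncostatin M, had 14.3 FPKM in the library labelled FSP1+, against 5.41 in that labelled αSMA+, a ratio of 1.26. Its receptor Osmr had 21.0 FPKM in the library labelled FSP1+, against 74.8 in that labelled αSMA+, a ratio of -1.78. Fgf2, a fibroblast growth factor, had 2.52 FPKM in the library labelled FSP1+, against 68.3 in that labelled αSMA+, a ratio of -4.30.

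Transcription factors known to act at metalloproteinase promoters were at least 2-fold higher over uninjured fibroblasts for 8 of 12 genes in the library labelled FSP1+, beside 14.6% of all entries, and for 8 of 12 in the library labelled αSMA+, beside 17.0%. Between the GFP+ libraries, 4 were higher in the library labelled FSP1+, beside 19.1%, and 1 was lower, beside 14.5%. Fos had 1017 FPKM in the library labelled FSP1+, against 105.5 in that labelled αSMA+, a log2 ratio of 3.26. Jun had 899 FPKM in the library labelled FSP1+, against 128 in that labelled αSMA+, a ratio of 2.80. Junb, also an AP-1 gene, had 2575 FPKM in the library labelled FSP1+, against 2022 in that labelled αSMA+, a ratio of 0.35. Whether the RNA levels of these factors bear on Mmp13, Mmp3 or any other member was not tested. In αSMA+ over uninjured, Fos (-0.48) and Jun (-0.86) had ratios below 0 and Junb had 2.59.

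Among genes whose products metalloproteinases cut, 8 of 14 were at least 2-fold lower in FSP1+ over uninjured, beside 16.0% of all entries, and 1 was higher, beside 14.6%. In αSMA+ over uninjured 6 of 14 were lower, beside 7.11%, and 0 higher, and in FSP1+ over αSMA+ 6 of 13 were higher, beside 19.1%, and 3 lower, beside 14.5%. Col1a1 and Col3a1, the main fibrillar collagens of the heart, had log2 ratios of -1.19 and -1.40 in FSP1+ over uninjured and of -2.68 and -2.79 in αSMA+ over uninjured. Between the GFP+ libraries, Col1a1 had 899.5 FPKM in the library labelled FSP1+, against 266 in that labelled αSMA+, a ratio of 1.75. The proteoglycan gene Dcn had 851 FPKM in the library labelled FSP1+, against 3145 in that labelled αSMA+, a ratio of -1.88. Of the collagen receptors and genes of collagen clearance, 1 of 9 was at least 2-fold higher in FSP1+ over αSMA+, beside 19.1%, and 0 lower. Of the ADAM sheddases, a related family of membrane metalloproteases, 3 of 8 could be read alone, and Adam9 had 32.9 FPKM in the library labelled FSP1+, against 75.4 in that labelled αSMA+.

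**Figure D5:**
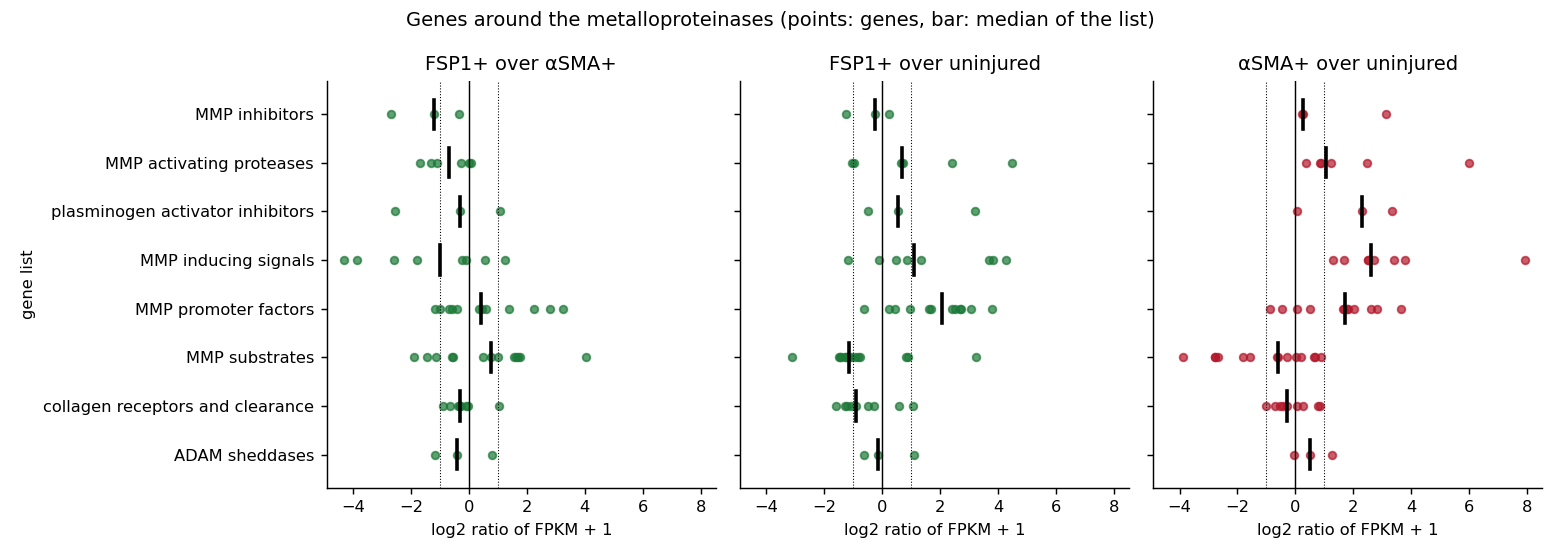
Log2 ratio of FPKM + 1 of the genes in 8 lists around the metalloproteinases (rows), for the 3 comparisons (panels), with a point a gene, a black bar at the median of each list and dotted lines at 2-fold. The median of the inducing signals was 2.61 in αSMA+ over uninjured and that of the promoter factors 2.05 in FSP1+ over uninjured.

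Markers of other cell types moved with these comparisons. In FSP1+ over αSMA+, 19.1% of all entries were at least 2-fold higher and 14.5% lower. The shares were 14.6% and 16.0% in FSP1+ over uninjured and 17.0% and 7.11% in αSMA+ over uninjured. Each marker count below stands beside these shares. Summed over 10 macrophage markers, the libraries labelled FSP1+ and αSMA+ had 3276 and 1189 FPKM in their shared table. Over uninjured fibroblasts, macrophage markers summed to 3762 FPKM in the library labelled FSP1+, against 90.4 in that labelled uninjured, and to 1410 in the library labelled αSMA+, against 78.2 in that labelled uninjured. At least 2-fold higher were 7 of 10 in FSP1+ over αSMA+, 10 of 10 in FSP1+ over uninjured and 9 of 10 in αSMA+ over uninjured. The 10 neutrophil markers summed to 218.5 FPKM in the library labelled FSP1+, against 40.3 in that labelled αSMA+. Of these, 8 had at least 1 FPKM in either library, with 4 higher by at least 2-fold (S100a8, S100a9, Retnlg and Lcn2) and 1 lower. The lower one was Cxcr2, a chemokine receptor of neutrophils, with 5.71 FPKM in the library labelled FSP1+, against 14.5 in that labelled αSMA+. The neutrophil markers summed to 251 FPKM in the library labelled FSP1+, against 37.9 in that labelled uninjured, and to 47.8 in the library labelled αSMA+, against 32.8 in that labelled uninjured. Over uninjured fibroblasts, 4 of 7 were higher and 1 lower (Cxcr2) in the library labelled FSP1+. In the library labelled αSMA+, 2 of 8 were higher and 1 lower (Retnlg). The 9 endothelial markers summed to 796 FPKM in the library labelled FSP1+, against 233 in that labelled αSMA+, with 8 of 9 higher by at least 2-fold. Over uninjured fibroblasts, 9 of 9 were higher in the library labelled FSP1+ (914 FPKM, against 69.1 in that labelled uninjured) and 7 of 9 in the library labelled αSMA+ (276 FPKM, against 59.9 in that labelled uninjured). Of 8 mural markers, 7 were higher in FSP1+ over αSMA+, with a sum of 729 FPKM in the library labelled FSP1+, against 196 in that labelled αSMA+. Of 10 fibroblast markers, 8 were lower in FSP1+ over uninjured, with a sum of 4797 FPKM in the library labelled FSP1+, against 12375 in that labelled uninjured. Of 5 cardiomyocyte markers, 4 were higher in αSMA+ over uninjured, with a sum of 67.2 FPKM in the library labelled αSMA+, against 21.2 in that labelled uninjured.

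No macrophage, neutrophil or endothelial marker on these lists was at 0 in any library. Mmp9, a gene of neutrophils and macrophages, was highest in the library labelled FSP1+ and lowest in the library labelled uninjured. The summed macrophage, neutrophil and endothelial markers had the same order, though single markers such as Cxcr2 and Retnlg did not. Mmp8, the neutrophil collagenase, did not, and stayed between 1.49 and 2.62 FPKM in every table. Mmp13 and Mmp3 had their highest values in the library labelled αSMA+, which had the lower macrophage, neutrophil and endothelial sums of the GFP+ libraries. The part of other cell types in these values was not tested.

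Genes with the most similar pattern were sought among 5629 protein-coding genes with at least 10 FPKM in any library, by Euclidean distance over the 3 log2 ratios. With 3 libraries only, this is a description. Nearest to Mmp2 were Pramel38 (distance 0.067), Abca12 and Grk1, and nearest to Mmp3 were Pwp1 (0.042), Rlim and Ddx56. Cd276 (0.034), Sparc and Emilin1 were nearest to Mmp11. Mmp13 had no gene as close, its nearest being Chac1 (0.184), Psat1 and Asns. For Mmp14 they were Gaa (0.037), Nuf2 and Tceal8, and for Mmp23 they were Col6a3 (0.121), Trnp1 and Fbn1.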

How the data were processed

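RNA of 3 libraries of mouse cardiac fibroblasts was sequenced, 1 a group. According to the study's methods, the authors aligned the reads to GRCm38. Cuffdiff gave the values per gene, and its version is not given in the sources used here. The labels state single reads of 50 bp, whereas the methods state paired ends. The deposited values are FPKM, in 3 tables that each compare a pair of libraries and were scaled separately, with an offset of 0.001 that was removed. The authors' own log2 fold, test statistic, p-value and q-value columns were not used. The number of columns of other samples was 0. Total reads per library are not known, and the worth of a single read was estimated from the lowest FPKM values.

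Entries carry transcript identifiers and positions. Symbols were assigned by position from RefSeq (GRCm38.p6) and GENCODE M21 for entries alone at their locus. The overlap had to make up 0.8 or more of the bases that entry and gene cover together, and no second gene could reach 0.7. In this way 18248 entries received a symbol, and 8265 lay at shared loci. Ratios are log2 of FPKM with a pseudocount of 1, which understates changes of low genes. A gene counted where it passed 2-fold and had at least 1 FPKM in either library. All members found by position were named, and lists of up to 12 genes could be named in full. Of longer lists, the 4 most abundant genes past 2-fold with at least 10 FPKM in either library were eligible. The family genes Mmp10, Mmp15, Mmp17, Mmp27 and Mmp28 were named outside this rule. For likeness the 3 nearest genes were given. The members and lists were chosen with earlier results of these data known. Pseudocount, minimum, fold, scaling and naming were varied. Scripts (Python 3.11.15, pandas 2.3.3, NumPy 2.4.6, SciPy 1.17.1, matplotlib 3.10.9) were tested on simulated data. Protein sequences were not analysed here.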

Additional observations from a re-analysis of the deposited data

How the results depend on the processing

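No paired analysis was possible because each group had 1 library and no replicate number was shared. Over the 3 comparisons, 15 of 27 pairs of a member and a comparison passed 2-fold. Of the 11 alternatives, those of minimum, naming and fold left every member ratio as it was, and a pseudocount cannot change a sign. Signs could therefore change only with median centring, TPM or ratios through the third library. With these, none of the 15 pairs changed sign or lost its call. None of the other 12 passed 2-fold with them or with a pseudocount of 0.1 or 5. A pseudocount of 5 took 5 calls away, which left 0 higher members in FSP1+ over αSMA+ and 1 in FSP1+ over uninjured. At 4-fold, 3 calls remained. The count was then 0 higher and 1 lower in FSP1+ over αSMA+, 1 higher and 0 lower in FSP1+ over uninjured, and 1 higher and 0 lower in αSMA+ over uninjured. With at least 5 FPKM in either library, 1 member was higher in FSP1+ over uninjured and the members' median in FSP1+ over αSMA+ was -0.56. With at least 1 FPKM in both libraries, 0 were higher in FSP1+ over uninjured and 1 in αSMA+ over uninjured. Fewer members entered under either minimum. Of the pairs under 2-fold, 5 changed sign, Mmp8, Mmp14 and Mmp23 in FSP1+ over αSMA+, Mmp3 in FSP1+ over uninjured and Mmp16 in αSMA+ over uninjured. Rescaling to TPM moved the median of all entries by -0.53 on the log2 scale in αSMA+ over uninjured and by -0.26 in FSP1+ over uninjured. Ratios through the third library moved it by -0.21 in FSP1+ over αSMA+. Of 297 list medians under the alternatives, 13 moved by over 1.5-fold and 0 reversed, though the 4-fold threshold could not move a median. Depth limits Mmp13 and Mmp9 in the uninjured library, with about 5 and 14 reads.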
